A study of Homo sapiens with 6 samples.

Results

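The 9 enzymes described here make serine and move its carbon through folate: PHGDH, PSAT1 and PSPH of the serine synthesis pathway, SHMT1 and MTHFD1 of the cytosolic folate arm, and SHMT2, MTHFD2, MTHFD1L and ALDH1L2 of the mitochondrial folate arm. They were taken by gene symbol, 9 of the 19775 genes that have a probe set of their own on the array. The cells were WM-266.4, a human line established from a melanoma metastasis, profiled on Affymetrix HG-U133 Plus 2 arrays, where a set of short probes gives 1 signal per transcript region. Cells were seeded 24 h before transfection. The siPIR group was transfected with 200 pmol of 4 pooled siRNA duplexes that target PIR, the gene of the iron-binding nuclear protein pirin. The siCTR group was given 200 pmol of 4 pooled non-targeting duplexes. The NO group went through transfection with the reagent and no oligonucleotide. All were harvested 72 h after transfection, so the 3 groups share the reagent, the medium without serum and the time. RNA of 3 extractions was mixed into 1 pool per group and hybridised to 2 arrays, so n is 1 pool per group, the 2 arrays show hybridisation error alone, and nothing here replicates a culture.

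Serine is made from a glycolytic intermediate in the cytosol. SHMT enzymes then split it into glycine and a carbon unit carried by tetrahydrofolate, which cells use to build purines and thymidylate and to remethylate homocysteine. In proliferating cells the mitochondrial arm usually oxidises serine to formate, which leaves the mitochondria and feeds the cytosolic arm. Genes of the pathway are known targets of ATF4, the transcription factor of the amino acid stress response, and the pathway serves growing cells, including many melanomas in which PHGDH is gained or highly expressed.

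The labels were checked first. PIR had 392.3 and 381.5 signal units in siPIR, against 13543.7 and 13179.9 in siCTR and 13990.2 and 14152.9 in NO. The difference of the pool means, on the scale of log2(signal + 5.4) used throughout, was -5.09 against siCTR, a 34.1-fold lower signal in siPIR. Median signals of the 6 arrays lay between 64.2 and 74.8, and duplicate arrays correlated across bright genes at r of 0.9923 (siPIR), 0.9932 (siCTR) and 0.9936 (NO), a description across genes. Genes with a pool mean over 70.2 in 1 or more pools (the median of all values) count as measured, and those over 458.4 (the 75th percentile) as bright, which left 13071 measured and 8272 bright genes. Melanocyte markers were present, with 7 of 7 bright, among them the melanin enzyme TYR (40133.4 and 37848.2 in siPIR, 37842.2 and 38838.4 in siCTR, 34921.4 and 36434.2 in NO). Most markers of other cell types were not measured: 4 of 5 keratinocyte, 3 of 5 leukocyte, 4 of 6 endothelial and 3 of 6 fibroblast markers. Of these lists, only KRT10 and COL1A2 were bright. COL1A2, a collagen chain, had 23527.1 and 22582.0 in siPIR against 14205.4 and 15381.1 in siCTR and 12247.4 and 12264.5 in NO. The part of these markers in the results was not tested.

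The members were represented by 25 probe sets, of which 20 are annotated with the member alone and 5 with several genes. On their own probe sets 6 members were measured, all of them bright: PHGDH, PSAT1, PSPH, MTHFD1, SHMT2 and MTHFD2. The own probe sets of SHMT1, MTHFD1L and ALDH1L2 stayed at or below 51.9 signal units on every array and were not measured. SHMT1 and MTHFD1L also have brighter probe sets annotated with further genes (MIR6778, and LOC101928195 with LOC100996643), and their values are given with that reservation.

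The stretches before the start sites of 5 members that differed in size of change are shown with matches to the motifs named below. They are the 250 bases upstream of the start, from RefSeq on GRCh38.p14, and capitals mark matches on either strand to the CCAAT box (CCAAT, bound by NF-Y), the E-box (CACGTG, bound by MYC), and the core of the C/EBP-ATF response element through which ATF4 acts (TGATGNAA). No match to another motif, the antioxidant response element core (TGACNNNGC, bound by NRF2), was found in any window of a member. The matches did not overlap each other, and bases after the start were not searched.
PHGDH, chr1:119711684-119711933, plus strand: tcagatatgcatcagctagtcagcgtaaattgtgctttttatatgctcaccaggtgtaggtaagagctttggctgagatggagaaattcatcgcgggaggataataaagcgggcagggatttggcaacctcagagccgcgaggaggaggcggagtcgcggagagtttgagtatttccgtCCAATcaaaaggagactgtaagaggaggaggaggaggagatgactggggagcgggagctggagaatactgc
PSAT1, chr9:78296875-78297124, plus strand: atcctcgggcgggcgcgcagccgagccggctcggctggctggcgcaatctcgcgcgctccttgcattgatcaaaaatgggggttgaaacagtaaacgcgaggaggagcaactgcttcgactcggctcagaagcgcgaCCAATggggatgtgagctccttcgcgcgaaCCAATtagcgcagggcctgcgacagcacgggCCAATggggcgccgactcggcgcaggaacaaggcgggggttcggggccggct
MTHFD1, chr14:64388103-64388352, plus strand: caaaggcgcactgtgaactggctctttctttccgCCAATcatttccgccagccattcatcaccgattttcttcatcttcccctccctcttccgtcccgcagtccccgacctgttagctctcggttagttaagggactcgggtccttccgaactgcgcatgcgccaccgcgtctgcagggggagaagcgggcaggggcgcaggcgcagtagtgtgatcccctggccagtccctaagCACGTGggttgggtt
MTHFD1L, chr6:150866236-150866485, plus strand: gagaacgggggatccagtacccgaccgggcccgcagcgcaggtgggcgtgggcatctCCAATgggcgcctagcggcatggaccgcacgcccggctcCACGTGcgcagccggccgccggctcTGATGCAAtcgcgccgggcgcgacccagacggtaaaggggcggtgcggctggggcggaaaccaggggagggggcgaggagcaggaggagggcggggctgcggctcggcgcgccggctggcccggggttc
MTHFD2, chr2:74198365-74198614, plus strand: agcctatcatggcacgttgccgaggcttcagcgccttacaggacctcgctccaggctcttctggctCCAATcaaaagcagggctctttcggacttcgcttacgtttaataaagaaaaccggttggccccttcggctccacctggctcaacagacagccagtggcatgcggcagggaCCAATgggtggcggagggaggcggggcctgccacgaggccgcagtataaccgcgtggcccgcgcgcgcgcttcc
Of the 9 members, 6 had a window in the table used (these 5 and SHMT1). MTHFD1L had 4, and the window shown above for it holds the C/EBP-ATF core. A CCAAT box stood in at least 1 window of all 6 members, against 32.0% of 35116 windows of all genes. The shares given here are per window, while MTHFD1L could match in any of its 4. PSAT1 had 3 such boxes, at 113, 83 and 52 bases before the start, while PHGDH had 1, at 71. An E-box, in 6.34% of all windows, was present for MTHFD1 and MTHFD1L. The C/EBP-ATF core, in 3.14% of all windows, was found for MTHFD1L alone among the 6. It was in 2 of its 4 windows, but these overlap and hold the same core and the same E-box. The antioxidant core was in 10.9% of all windows. These are letters in a window and not measured binding.

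**Figure D1:**
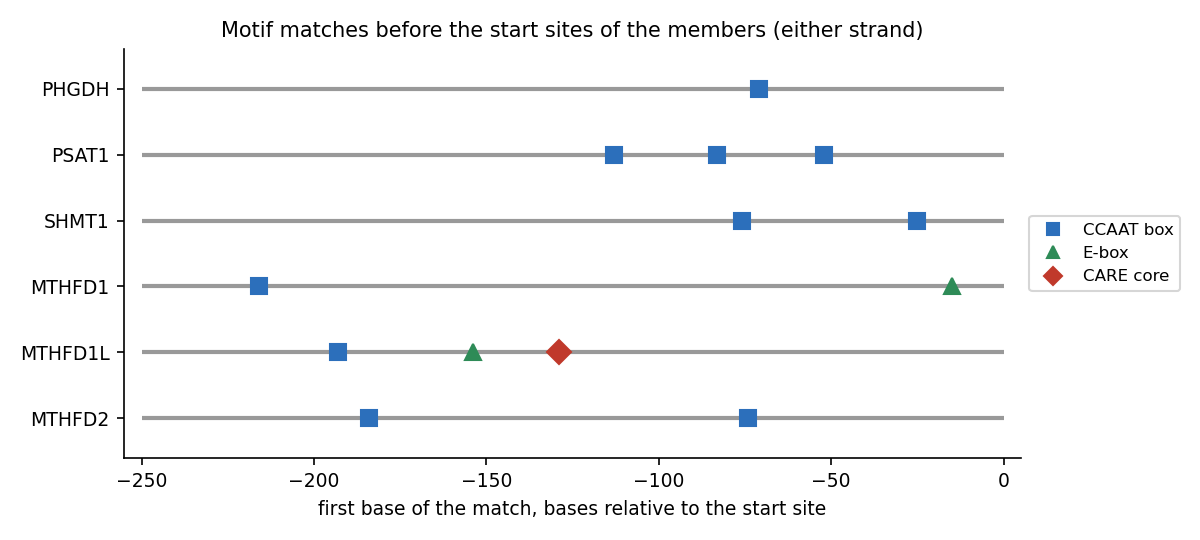
Positions of the motif matches in the 250 bases before the start site for the 6 members with a window (1 of the 4 windows for MTHFD1L); the x axis gives the first base of each match relative to the start. PSAT1 carries 3 CCAAT boxes and PHGDH 1, and the C/EBP-ATF core (CARE core) appears for MTHFD1L.

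Among the serine synthesis enzymes the first was lower in the siPIR pool and the next steps were not lower to that extent. PHGDH, the dehydrogenase that commits 3-phosphoglycerate to serine, had 1594.1 and 1724.1 signal units in siPIR, against 3808.6 and 3664.9 in siCTR and 3476.3 and 3650.8 in NO. Both siPIR arrays were far below all 4 control arrays, while siCTR and NO lay close together. On the log2 scale siPIR minus siCTR was -1.17 (from -1.25 to -1.09 between single arrays, 4 pairs), 2.25-fold lower, and the difference was -1.10 against NO (-1.19 to -1.01), 2.15-fold lower. Between siCTR and NO, PHGDH differed by 0.07. A second probe set that is annotated with PHGDH, MZT2A and MZT2B, and so is uncertain, had 4871.2 and 4613.6 in siPIR, 6646.8 and 5824.7 in siCTR and 5747.1 and 5905.2 in NO, a difference of -0.39 and -0.30.

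PSAT1, the aminotransferase of the next step, had 4193.5 and 4395.0 in siPIR, 4840.7 and 4791.3 in siCTR and 5523.0 and 5784.6 in NO on its brighter probe set. The siPIR arrays were lowest and the NO arrays highest, with differences of -0.17 against siCTR (-0.21 to -0.12) and -0.40 against NO (-0.46 to -0.33). The other PSAT1 probe set read 2545.9 and 2418.7 in siPIR, 2143.7 and 2352.4 in siCTR and 2751.6 and 2589.2 in NO, which is 0.14 against siCTR and -0.10 against NO, so its probe sets did not share a sign against siCTR.

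PSPH, the phosphatase that releases serine, had 5477.2 and 5594.5 in siPIR, 4626.8 and 4339.0 in siCTR and 5270.8 and 5164.3 in NO. Its brightest probe set was thus highest in siPIR, by 0.31 against siCTR (0.24 to 0.37) and 0.09 against NO (0.06 to 0.11). A second probe set read 1289.0 and 1265.9 in siPIR, 1272.2 and 1414.0 in siCTR and 2030.1 and 1908.2 in NO. It placed siPIR -0.07 from siCTR and -0.62 from NO, with siCTR itself -0.55 from NO. The third was dim and uneven, with 230.3 and 95.3 on the siPIR arrays. The enzymes were compared with each other on the brightest own probe set of each. There PHGDH was lower relative to PSPH by a difference of differences of -1.47 against siCTR (-1.53 to -1.41) and -1.19 against NO (-1.28 to -1.10). Relative to PSAT1 it was lower by -1.004 (-1.05 to -0.96) and -0.70 (-0.73 to -0.68). These ranges hold hybridisation error only and not the spread between probe sets. With the second PSPH probe set, at -0.62 against NO, the gap between PHGDH and PSPH against NO would be smaller.

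**Figure D2:**
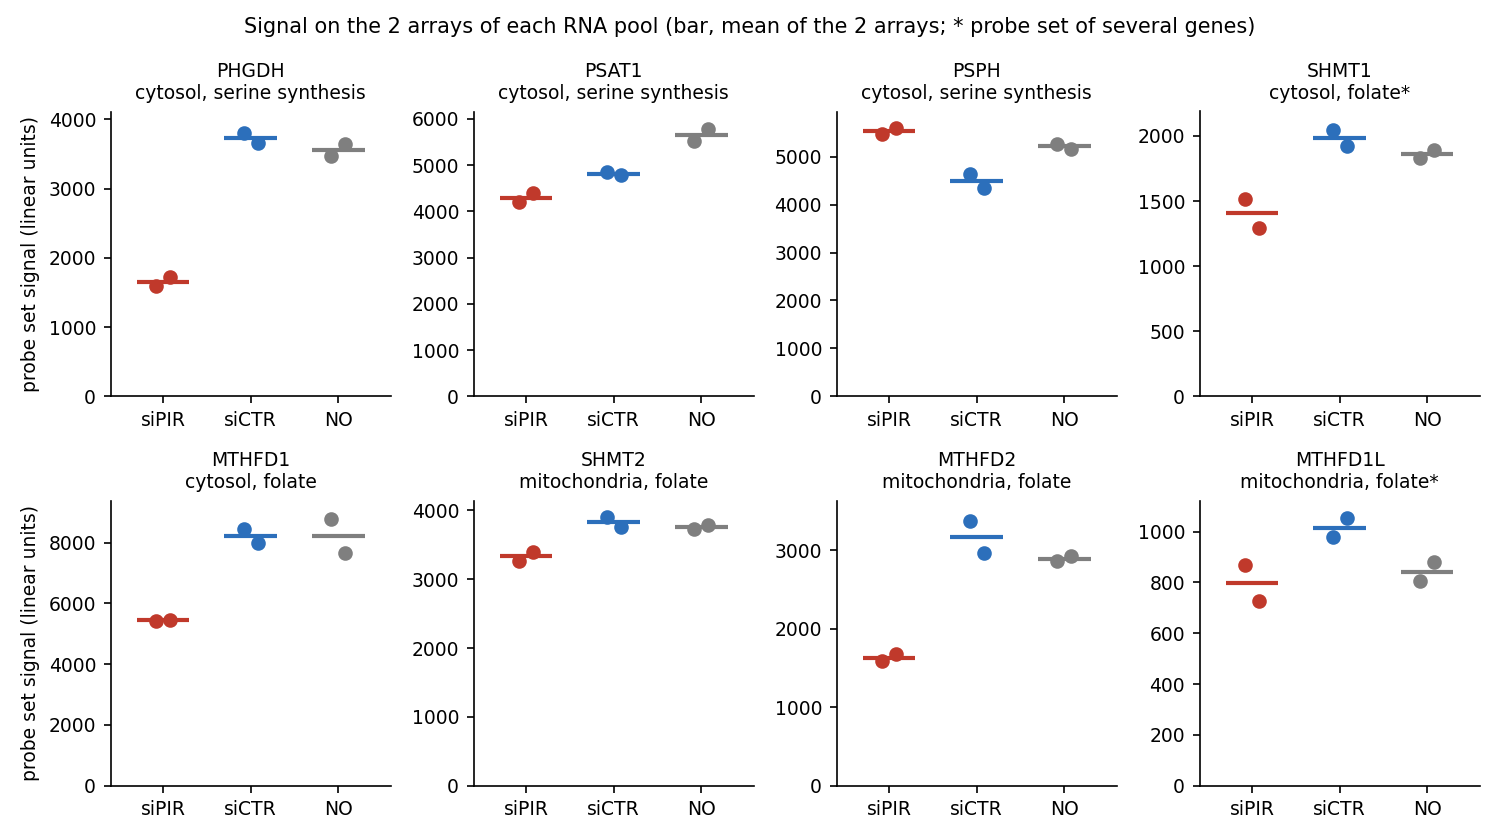
Probe set signal in linear units on each array (points) with the mean of the 2 arrays of a pool (bars) for siPIR, siCTR and NO; an asterisk marks a probe set annotated with several genes. Both siPIR arrays stand below all control arrays in every panel except MTHFD1L and PSPH, and only PSPH has siPIR highest.

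In the cytosolic folate arm MTHFD1 was lower in siPIR by about the same amount against each control. MTHFD1, a trifunctional enzyme that interconverts formyl, methenyl and methylene forms of tetrahydrofolate, had 5419.0 and 5457.6 signal units in siPIR, 8431.3 and 7987.3 in siCTR and 8762.9 and 7651.2 in NO. Both siPIR arrays lay below all control arrays, while the siCTR and NO arrays overlapped. The difference was -0.59 against siCTR (-0.64 to -0.55) and -0.59 against NO (-0.69 to -0.49), 1.51-fold lower than each. Its other probe set was not measured.

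SHMT1, the cytosolic serine hydroxymethyltransferase, could be followed only on the 2 probe sets shared with the microRNA gene MIR6778. The brighter had 1519.1 and 1292.6 in siPIR, 2045.4 and 1919.6 in siCTR and 1831.0 and 1892.3 in NO, a difference of -0.50 (-0.66 to -0.34) and -0.41 (-0.55 to -0.27). The other had 656.7 and 576.5 in siPIR, 1164.6 and 1320.4 in siCTR and 923.5 and 886.1 in NO. It differed by -1.005 against siCTR and -0.55 against NO, and siCTR was 0.45 above NO. On both, the siPIR arrays were the lowest, and the size depended on the probe set and on the control. The 2 probe sets of SHMT1 alone ranged from 4.7 to 51.9 and are not read further.

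In the mitochondrial arm the enzymes differed from each other. MTHFD2, the dehydrogenase and cyclohydrolase that is known for its expression in embryos and tumours, had 1586.7 and 1672.6 in siPIR, 3369.4 and 2965.7 in siCTR and 2863.2 and 2925.4 in NO. The siPIR arrays were again the lowest, by -0.95 against siCTR (-1.08 to -0.82), 1.94-fold, and by -0.83 against NO (-0.88 to -0.77), 1.77-fold. A dim second probe set, which may bind other transcripts, had 74.0 and 79.8 in siPIR, 163.8 and 114.3 in siCTR and 121.1 and 163.7 in NO, with differences of -0.79 and -0.83.

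SHMT2, the mitochondrial serine hydroxymethyltransferase and the source of most of this carbon in many cell lines, had 3268.6 and 3396.8 in siPIR, 3912.2 and 3766.6 in siCTR and 3732.1 and 3792.8 in NO. Its siPIR arrays were below the control arrays by a small margin, -0.20 against siCTR (-0.26 to -0.15) and -0.17 against NO (-0.21 to -0.14). The other SHMT2 probe sets gave -0.20 and -0.26, and -0.06 and -0.26, the last with overlapping arrays. MTHFD2 was lower than SHMT2 by a difference of differences of -0.75 (-0.83 to -0.68) against siCTR and -0.65 (-0.67 to -0.64) against NO.

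MTHFD1L, which releases formate from the mitochondrial folate pool, could be followed only on probe sets annotated with LOC101928195 and LOC100996643 as well. The brighter had 870.0 and 728.2 in siPIR, 979.7 and 1051.9 in siCTR and 805.0 and 878.9 in NO. It was lower than siCTR by -0.35 (-0.53 to -0.17) but overlapped NO, at -0.08 (-0.27 to 0.11). The dimmer differed by -0.49 and -0.41. ALDH1L2, which oxidises formyl-tetrahydrofolate in mitochondria, had 3 probe sets with signals between 2.5 and 49.4, below the limit of measurement in all 3 pools, and no difference is given.

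**Figure D3:**
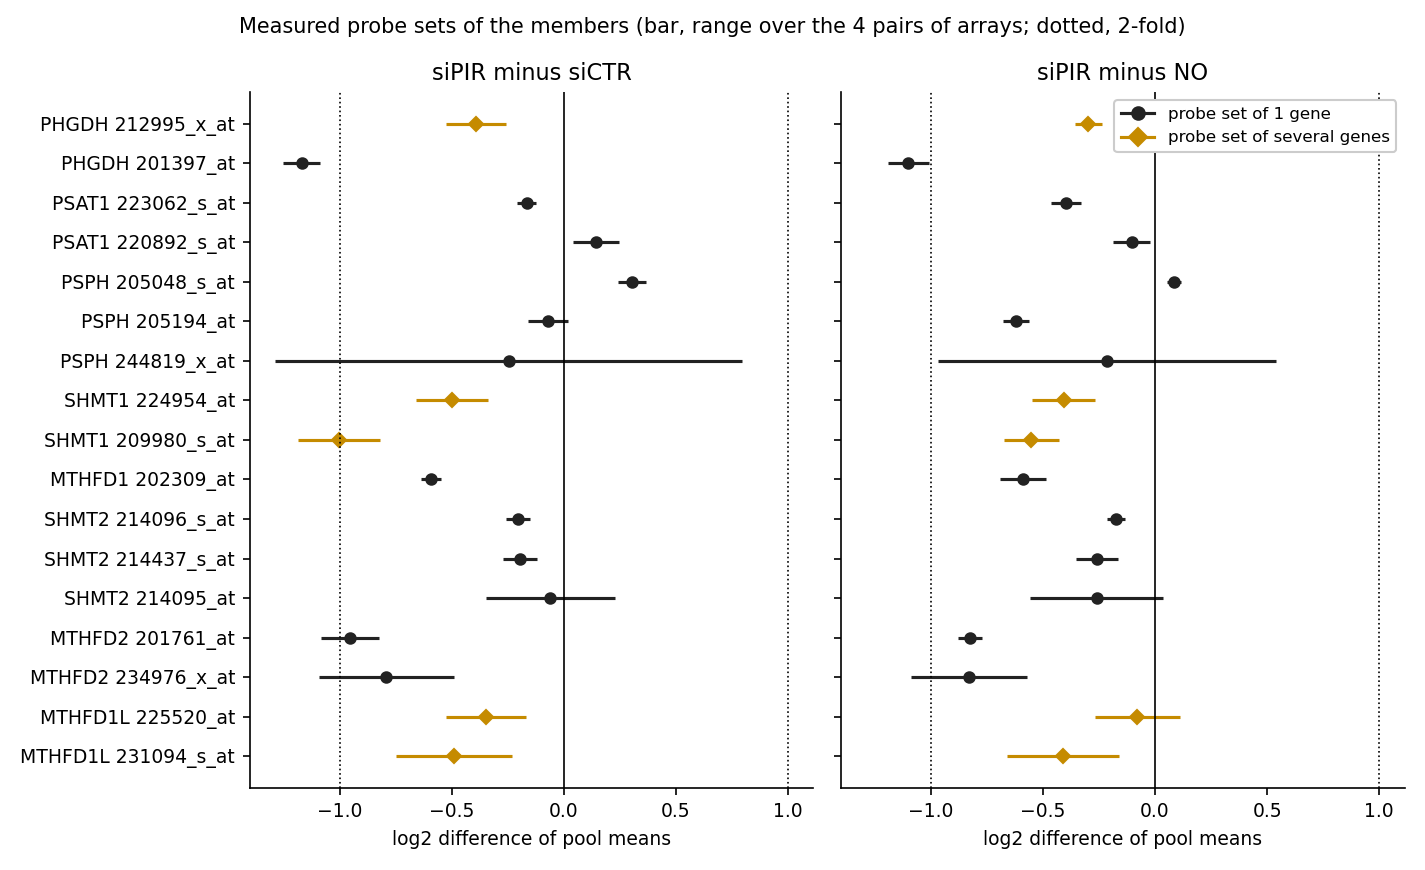
Log2 difference of pool means for the 17 measured probe sets of the members, siPIR minus siCTR on the left and siPIR minus NO on the right; bars give the range over the 4 pairs of arrays, diamonds mark probe sets annotated with several genes, and dotted lines mark 2-fold. The PHGDH probe set of its own is the one past 2-fold in both panels, and the PSPH and PSAT1 probe sets lie on both sides of 0 against siCTR.

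Genes were called where the pools differed by 1 or more on the log2 scale (2-fold) without overlap of their arrays, a rule that weighs size and hybridisation error and is no test. PHGDH was the only one of the 6 measured members called lower than siCTR (4.26% of all 13071 measured genes were), lower than NO (5.48%) and lower than both (3.22%, and 3.41% of the bright genes). It was the only member called lower than both under each of the alternatives run, of which several could not change its value. Against siCTR alone, MTHFD2 was also called, at -1.05, without the second siCTR array. Without the size limit, 5 of 6 members had siPIR arrays below all control arrays (29.1% of bright genes did), and 1, PSPH, had them above (34.0% did), so this separation of arrays was common. The median difference of the 6 was -0.40 against siCTR and -0.49 against NO, beside 0.02 and 0.05 for the bright genes and 0.05 and 0.03 for all measured genes. Ranked among the bright genes, 2.90% had a lower difference from siCTR than PHGDH, 4.33% than MTHFD2, 9.90% than MTHFD1, 28.1% than SHMT2, 31.4% than PSAT1 and 78.4% than PSPH. Against NO the order was the same except that PSAT1 (17.6%) came before SHMT2 (30.8%). The members were chosen with earlier results of these data known, so none of this is evidence about the pathway as a set.

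**Figure D4:**
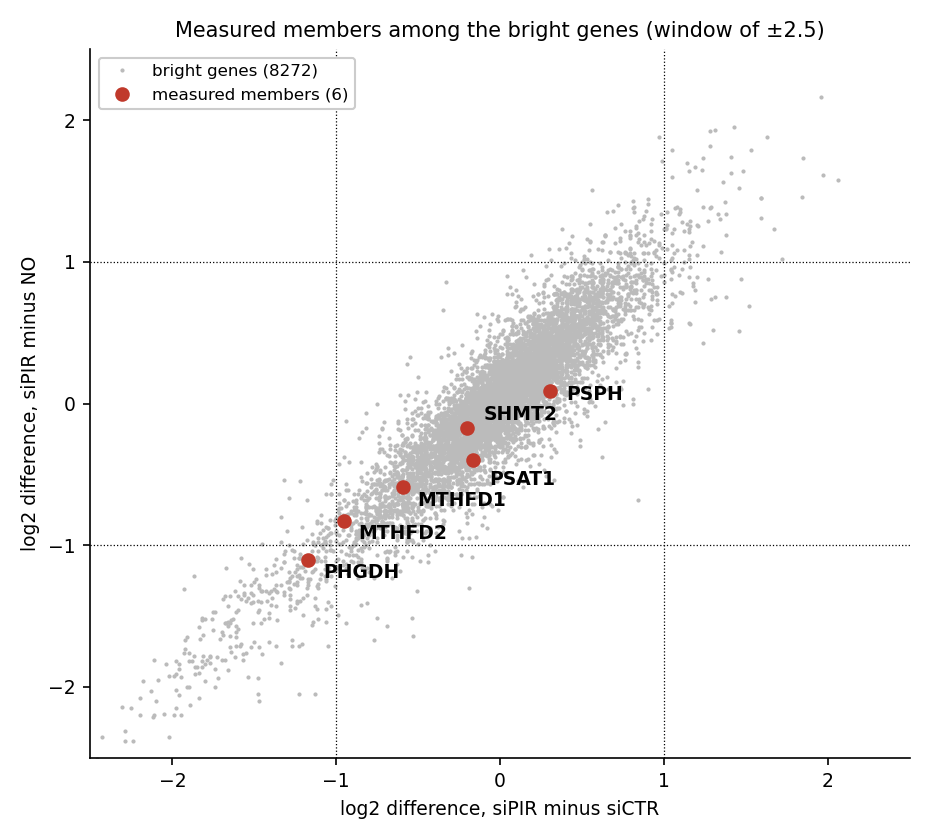
Log2 difference of siPIR from siCTR (x axis) and from NO (y axis) for the 8272 bright genes (grey; PIR and other genes beyond the window are not shown) and the 6 measured members (red); dotted lines mark 2-fold. PHGDH lies past 2-fold on both axes, MTHFD2 just inside it, and PSPH on the positive side; both axes share the siPIR pool.

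The fit across samples, limma on the 3 pool means with siPIR against siCTR and NO as 2 pools without knock-down, has 1 residual degree of freedom. Its Benjamini-Hochberg adjusted p was under 0.05 for 0 of 13071 genes (0.0%), although 2739 had an unadjusted p under 0.05 and 620 were called by the rule of size. PIR itself had an adjusted p of 0.141 in this limma fit. PHGDH differed by -1.14 ± 0.16 (SE; limma adjusted p = 0.143), MTHFD2 by -0.89 ± 0.17 (0.168) and MTHFD1 by -0.59 ± 0.16 (0.203). The outcome rests on which genes are fitted: with limma on the bright genes alone, 1079 genes were lower at an adjusted p under 0.05 (13.0%) and 3 of the 6 members were among them, PHGDH (0.000498), MTHFD2 (0.00247) and MTHFD1 (0.0173). SHMT2 (0.401), PSAT1 (0.243) and PSPH (0.419) did not pass there. The fit treats both controls as repeats of a condition, which they are not.

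The medians of the cytosolic and mitochondrial folate arms lay close together, and which was lower depended on the probe sets used. On their own probe sets the mitochondrial members SHMT2 and MTHFD2 had a median difference from siCTR of -0.58, and MTHFD1, the 1 cytosolic folate member measured, -0.59, which puts the mitochondrial arm 0.01 above the cytosolic arm; against NO the medians were -0.50 and -0.59, and the gap was 0.09. With the shared probe sets of SHMT1 and MTHFD1L added, an alternative added after seeing the data, the gap was 0.20 and 0.32. As the mean over all own probe sets, which brings in a dim MTHFD1 probe set, it was -0.56 and -0.15, so its sign is not settled. Enzymes compared across the arms differed in both directions: MTHFD2 was below MTHFD1 by -0.36 (-0.45 to -0.28) against siCTR, while SHMT2 was above MTHFD1 by 0.39 (0.35 to 0.42) and above the shared SHMT1 probe set by 0.29 (0.13 to 0.46). The shared probe set of MTHFD1L was above MTHFD1 by 0.24 against siCTR (range 0.02 to 0.47), and by 0.51 when set against NO (range 0.22 to 0.80). With 2 measured members in an arm and 1 in the other no test of the arms was made.

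The controls were close to each other for most members. Between siCTR and NO, 0 of 6 members were called (3.51% of all measured genes were), and the differences were 0.07 for PHGDH, 0.13 for MTHFD2, 0.03 for SHMT2 and 0.003 for MTHFD1. PSAT1 (-0.23, -0.27 to -0.19) and PSPH (-0.22, -0.28 to -0.16) were lower in siCTR than in NO with no overlap of arrays (23.9% of bright genes were). PHGDH (0.006 to 0.13) and MTHFD2 (0.02 to 0.23) were higher in siCTR than in NO, also without overlap (35.7% of bright genes were). For PSAT1 and PSPH the gap between the controls was wider than that between siPIR and the nearer control.

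Of the other folate enzymes and carriers, 17 of the 20 listed were measured, and their median was -0.14 against siCTR and -0.27 against NO. A call below both controls was made for 1 (3.22% of all measured genes had this), and for 0 above them (1.52% had this). It was TYMS, thymidylate synthase, which spends methylene-tetrahydrofolate on DNA synthesis. TYMS had 7582.7 and 8012.3 in siPIR, 18839.9 and 21433.2 in siCTR and 17581.1 and 18124.2 in NO, a difference of -1.37 and -1.20. Of the 17, 10 were negative and 3 positive against both controls (36.9% and 44.3% of all measured genes were). Chosen after their values were seen, SLC25A32, the carrier of folate into mitochondria, differed by -0.86 and -0.85, and GGH, which trims stored folate polyglutamates, by -0.62 and -0.58. On the other side, also chosen so, SFXN3 differed by 0.516 and 0.985 and MTFMT by 0.24 and 0.18. Both were bright and without overlap of arrays (34.0% of bright genes were higher in this way). FTCD, also chosen so, was called against siCTR alone (-3.10), but it was dim and siCTR was the pool that stood apart, with 9.2 and 7.5 in siPIR, 128.4 and 97.6 in siCTR and 22.8 and 10.5 in NO.

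Genes that use serine or glycine held no call against both controls among 13 measured of 19, with medians of -0.11 and -0.19. GLDC, the decarboxylase of the glycine cleavage system, came nearest, with 281.4 and 328.7 in siPIR, 562.5 and 587.4 in siCTR and 644.0 and 618.2 in NO (-0.91 and -1.04, called against NO alone). SRR, serine racemase, differed by -0.89 and -0.64, GCSH, the carrier protein of glycine cleavage, by -0.30 and -0.37, and CTH, which makes cysteine, by -0.22 and -0.39. Of 12 measured purine synthesis genes 11 were negative against both controls (36.9% of all measured genes were), with medians of -0.29 and -0.22 and no call against both. GMPS, which makes GMP, differed by -0.72 and -0.58 and PRPS2, which makes the ribose donor, by -0.69 and -1.11, while IMPDH1 was on the other side, at 0.59 and 0.76. Methionine cycle genes had medians of -0.02 and 0.06 over 9 measured, and MTAP, which salvages methionine, was the widest of them at 0.83 and 0.87.

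The list of ATF4 and its targets had positive medians, and it differed as much between the controls. Of 27 measured, 2 were called higher than both controls (1.52% of all measured genes were), 0 lower, 17 were positive and 7 negative against both (44.3% and 36.9% of all measured genes were), and the medians were 0.14 and 0.22. Between siCTR and NO the median of the list was 0.20, which lies between those values. SLC7A5, a transporter of large neutral amino acids, had 6178.4 and 5710.9 in siPIR, 3014.6 and 2624.8 in siCTR and 2470.3 and 2070.6 in NO, a difference of 1.08 and 1.39. SESN2, a stress-induced inhibitor of mTORC1 that senses leucine, differed by 1.14 and 1.70. Chosen after the values were seen, ATF4 itself differed by -0.17 with overlapping arrays against siCTR and by -0.28 without overlap against NO, ASNS, asparagine synthetase, by -0.16 and -0.21, and SLC1A4, a carrier of serine and alanine, by 0.51 and 0.52. Among 9 measured regulators of serine synthesis none was called against both controls. E2F1, which was not bright, differed by -0.72 (-1.374 to -0.075) and -1.07 and was called against NO alone. MYCN, which was dim, differed by 1.06 and 0.89 and was called against siCTR alone. PKM, the pyruvate kinase whose M2 form serine activates, differed by 0.56 and 0.63, and MDM2 by 0.48 and 0.23.

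**Figure D5:**
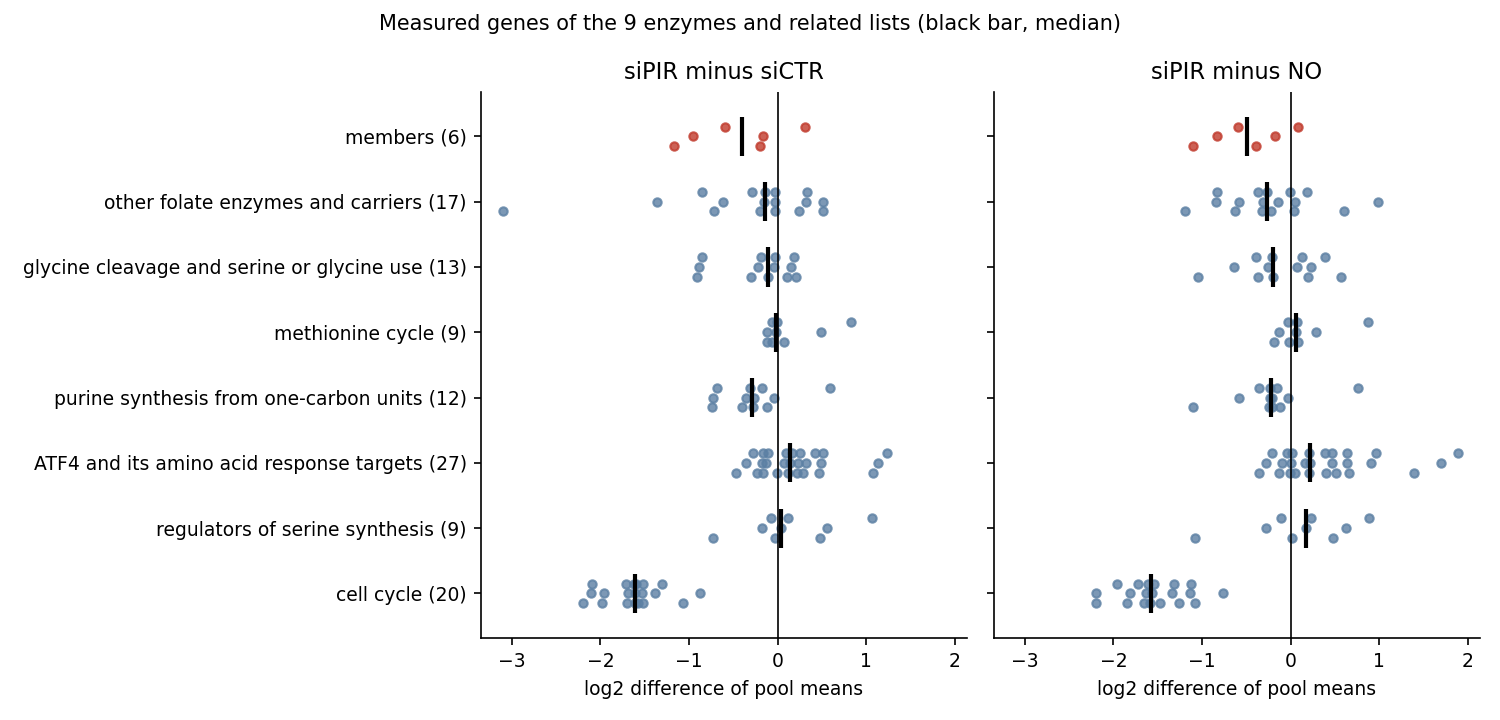
Log2 difference of siPIR from siCTR (left) and from NO (right) for the measured members (red) and for related gene lists (blue), 1 point per gene, with the number of genes in brackets and the median as a black bar. The members' medians of -0.40 and -0.49 lie below those of the folate, glycine, methionine, purine and ATF4 lists and above that of the cell cycle list, -1.61 and -1.58.

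Cell cycle genes were lower in siPIR as well. All 20 listed were measured, 19 had a call below siCTR and NO alike (3.22% of all measured genes did), and their medians were -1.61 and -1.58. They include the proliferation marker MKI67 (-1.61 and -1.47), thymidine kinase TK1 (-1.98 and -1.82) and the ribonucleotide reductase subunit RRM2 (-1.53 and -1.12), while PCNA, the 1 not called, differed by -0.88 and -0.77. The part of fewer dividing cells in the values of PHGDH, MTHFD2, MTHFD1 and TYMS was not tested, and in pooled RNA fewer cells of a state and less RNA per cell cannot be told apart. By distance over the 2 differences, the measured genes nearest to PHGDH were FZD6 (-1.15 and -1.10), PARP11, MOCOS, MIR3681HG and MNS1, all within 0.0349, and 40 genes lay within 0.1, so 3 pools do not single out a partner.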

How the data were processed

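Per the labels and the design text, 6 arrays of 3 RNA pools were read, and the deposited table holds an untransformed intensity for each probe set on each array. Per the submitters' processing notes the authors made them with GCOS, the Affymetrix software; its version is not given in the sources used here. The mean of each array without its lowest and highest 2% was 500.1 on each, the pattern of scaling to a common target, which hides changes of total RNA. Depth does not apply; the number of arrays limits the precision.

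Values were transformed as log2(value + 5.4), the 10th percentile of all values, and the 2 arrays of a pool averaged. Of 54675 probe sets, 41097 had 1 gene, 1801 several and 11777 none listed; 99.9% of the first matched a RefSeq gene (GRCh38.p14) by Entrez identifier. A gene was represented by its own probe set with the highest mean. The fit used limma 3.58.1 in R 4.3.3. It was also run on simulated pools that held the noise of repeat arrays and no difference between the controls. That run therefore does not assess the fit to the real pools. Differences, calls and motif searches used Python 3.11.15. All 6 columns were matched, with 0 left over.

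The members and lists were chosen with earlier results of these data known. Genes of the lists were named from those called against both controls, otherwise from the up to 4 with the largest smaller difference of 1 sign. Not all of these are given. MAT2A, BHMT2 and AMD1 of the methionine cycle, ADSS1 of purine synthesis and most of the called cell cycle genes were left out. TYR, PCNA and the genes said to be chosen after their values were seen fall outside this rule. Other list members have no probe set of their own in the table and were not analysed here. Alternatives were 4 times the pseudocount (21.6), a pseudocount of 1, quantile normalization, no filter or the 75th percentile filter, the mean over probe sets, leaving out _x_at and _s_at probe sets, leaving out each array, and probe sets of several genes for SHMT1 and MTHFD1L. Promoter windows came from the RefSeq table, searched on both strands.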

Additional observations from a re-analysis of the deposited data

How the results depend on the processing

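PHGDH was called lower against both controls, and was the only member so called, under all 14 alternatives. No other probe set is annotated with PHGDH alone. Its value therefore could not change with the filter, the mean over probe sets, or the choice of probe sets. Its shared probe set, with -0.39 and -0.30, entered no alternative. The PHGDH difference ranged from -1.23 to -1.11 against siCTR and from -1.16 to -1.04 against NO. That of MTHFD2 ranged from -1.05 to -0.86 and from -0.86 to -0.79. As the mean over probe sets, MTHFD1 was 0.04 from siCTR, and PSPH was -0.07 without _x_at and _s_at probe sets, where PSAT1 has none. The gap between the arms was 0.38 between siCTR and NO without a filter, -0.56 (siCTR), -0.15 (NO) and 0.41 (siCTR minus NO) as the mean over probe sets, 0.086 against siCTR without _x_at and _s_at probe sets, and 0.20 and 0.32 with probe sets of several genes; leaving out an array gave -0.01 to 0.04 against siCTR, -0.02 to 0.20 against NO and -0.04 to 0.19 between the controls. Counts over all genes moved with the filter on dim genes. Genes called numbered 1047 against siCTR (2422 without a filter, 444 in bright genes, 1088 to 1739 with an array left out), 1196 against NO (2563, 533 and 1197 to 1622) and 459 between controls (1768, 5 and 484 to 1074; 294 at 4 times the pseudocount). Against both, 421 were lower (658 without a filter, 443 to 545 with an array left out) and 199 higher (419 without a filter, 76 in bright genes, 197 to 385 with an array left out). The limma count was 0, 2104 in bright genes alone and 0 with any array left out, against 620 by the rule of size. No paired analysis was possible because the replicate numbers name repeat hybridisations of 1 pool.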
